A study of Mus musculus with 17 samples.

Results

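Aminoacyl-tRNA synthetases are the enzymes that join each amino acid to its transfer RNA, and they were examined here as a family of 35 genes among the 20227 genes measured on 17 exon arrays of 32D cells. The members were named genes: 19 encode enzymes of the cytosol and 16 encode enzymes imported into mitochondria, whose symbols end in 2. All 35 were measured, each by the mean log2 signal of its probe sets. The aspartyl enzymes were not analysed here. 32D is an immortalised mouse myeloblast-like line that needs interleukin-3 (IL-3) to grow, and the series asked how mutants of the receptor kinase FLT3 alter it.

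The arrays fell into 5 groups. Parental 32D cells, which carry no transgene, gave 2 arrays, cells with the empty retroviral vector pLXRN gave 2, and cells with human wild-type FLT3 in that vector gave 2. A further 2 arrays came from wild-type FLT3 cells that were split off and grown with FLT3 ligand at 20 ng/mL. The last 9 arrays came from 9 lines that each carried a different human FLT3 internal tandem duplication (ITD), an activating class of mutation found in leukaemia, and these lines are numbered 1 to 9. Vector and receptor lines were made by retroviral transduction and were populations of many clones. The parental, vector and wild-type cultures received mouse IL-3 at 1 ng/mL and the ITD cultures received none, so mutant receptor and absence of IL-3 cannot be told apart. Whether IL-3 was kept in the medium with ligand is not stated outright, and the ligand group is described here by the growth protocol, since its title is ambiguous. Titles number the arrays of each control pair as biological replicates, but whether these were separate lines or cultures is not settled, so the p-values may measure only spread between cultures.

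Each synthetase activates its amino acid with ATP and transfers it to the matching transfer RNA, which carries it to the ribosome. Protein synthesis in the cytosol and in mitochondria uses separate sets of these enzymes, mostly from separate genes, although the lysyl (Kars1) and glycyl (Gars1) genes supply both compartments. Several cytosolic enzymes sit in a multisynthetase complex held together by the scaffold proteins Aimp1, Aimp2 and Eef1e1. Many cytosolic synthetase genes are known targets of Atf4, the transcription factor that rises when amino acids are short, and MYC is known to drive genes of protein synthesis.

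Of the 19 cytosolic synthetase genes, 15 had higher signals on every array of cells that carried FLT3, wild-type or mutant, than on every array of receptor-free cells. Farsa, Kars1, Qars1 and Vars1 did not. The mean log2 signal over the 19 cytosolic genes was 9.63 and 9.67 on the parental arrays and 9.89 and 9.87 on the vector arrays. It was 10.49 and 10.46 with wild-type FLT3, 10.52 on both ligand arrays, and between 10.25 and 10.61 on the 9 ITD arrays (mean 10.40 ± 0.11, SD, n = 9). All 13 arrays with FLT3 thus lay above all 4 arrays without it. The mean over the 16 mitochondrial genes was 7.94 and 7.90 in parental cells, 7.95 and 7.89 with the vector, 8.18 and 8.14 with wild-type FLT3, 8.29 and 8.31 with ligand, and 7.96 to 8.26 on the ITD arrays. The lowest ITD value of that mean, in line 7, lay next to the highest receptor-free value. These are means of relative signals over genes and are given as a description. The means of some marker lists split the same arrays in the other direction. The mean of 10 myeloid progenitor markers was 10.19 and above without FLT3 and 9.91 and below with it. That of 6 neutrophil markers was 10.33 and above against 9.85 and below. Single markers differed: S100a8 and S100a9 of the neutrophil list had their highest group mean with wild-type FLT3. Kit and Ptprc of the progenitor list had theirs with ligand. The means of the eosinophil, mast cell and basophil markers and of the proliferation markers did not split by receptor. Their part in the synthetase result was not tested.

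**Figure D1:**
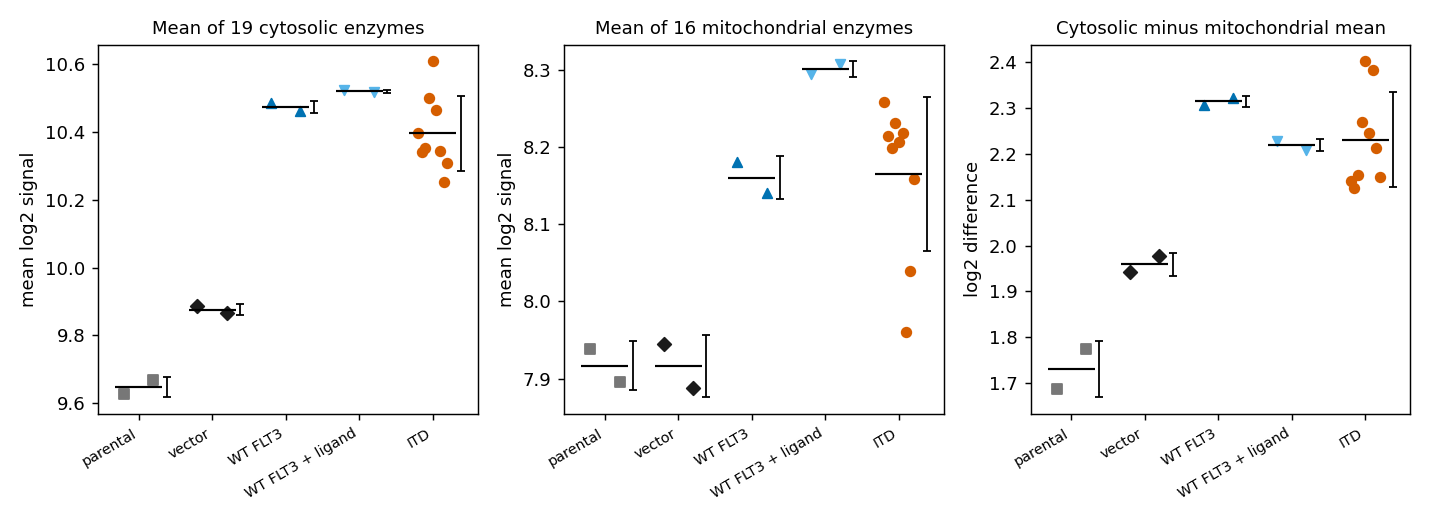
Mean log2 signal of the 19 cytosolic genes (left), of the 16 mitochondrial genes (middle) and their difference (right), by group. Points are arrays, horizontal lines are group means and vertical bars are ± 1 SD (n = 2, or 9 for ITD). The cytosolic mean separates the 13 FLT3 arrays (10.25 and above) from the 4 receptor-free arrays (9.89 and below). The vertical axes do not start at 0.

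The 15 cytosolic members with all 13 FLT3 arrays above all 4 parental and vector arrays stood against 5 of the 16 mitochondrial members (Mars2, Nars2, Rars2, Tars2 and Yars2). Of all genes, 5.61% showed that separation. No member of either class showed the opposite one, which 2.31% of all genes did. A moderated F test of any difference among the 5 groups (limma, Benjamini-Hochberg adjusted over all genes at 0.05) called 16 cytosolic and 10 mitochondrial members, where 26.8% of all genes were called. In these bulk RNA samples, fewer cells of a type and less RNA per cell cannot be told apart.

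Signals of different genes are only loosely comparable on this array, because probes differ. With that limit, the 17-array mean ran from 9.22 for Tars1 to 11.66 for Nars1 among the cytosolic genes (median 10.28). Among the mitochondrial genes it ran from 7.16 for Vars2 to 10.60 for Tars2 (median 8.0). Tars2, the mitochondrial threonyl enzyme, was therefore the one mitochondrial member with a signal in the upper part of the cytosolic range.

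The ITD lines were compared with parental cells and with vector cells, which asked what the mutant receptor lines, grown without IL-3, had in common against each receptor-free control. Against parental cells 16 cytosolic and 7 mitochondrial members rose and none fell, where 10.3% of all genes rose and 6.72% fell. Against vector cells 16 cytosolic and 5 mitochondrial members rose and none fell, where 8.82% of all genes rose and 5.21% fell. The median difference (log2) over the cytosolic members was 0.82 against parental and 0.53 against vector, over the mitochondrial members 0.23 and 0.21, and over all genes 0.01 and -0.01. Both comparisons use the same ITD arrays. The 21 calls against vector dropped to 12 without vector array 1 and to 9 without vector array 2, and the 23 calls against parental to 15 without parental array 2. How far the calls over all genes dropped without these arrays was not compared. The 9 members called in both comparisons under every alternative tried were Cars1, Farsb, Gars1, Iars1, Lars1, Rars1, Tars1, Yars1 and Tars2. How many of all genes kept their calls in this way was not counted, so that number has no background.

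Largest against parental cells was Tars1, the cytosolic threonyl enzyme. Its log2 signal was 8.16 and 8.24 on the parental arrays, 8.67 and 8.78 with vector, 9.40 and 9.35 with wild-type FLT3, 9.41 and 9.55 with ligand, and on the ITD arrays 9.18 at lowest, 9.49 at the median and 9.66 at highest. The ITD lines did not overlap with either receptor-free pair and overlapped with both wild-type pairs. The difference was 1.26 ± 0.11 (log2, SE, 2.39-fold; limma adjusted p 1.43e-06) against parental and 0.74 ± 0.11 (1.67-fold; adjusted p 0.000437) against vector.

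Lars1, the leucyl enzyme, which is also known as a leucine sensor upstream of mTORC1, read 9.65 and 9.82 in parental cells and 10.12 and 10.03 with vector. It read 11.14 and 11.07 with wild-type FLT3, 11.02 and 11.10 with ligand, and 10.80, 10.91 and 11.17 at the lowest, median and highest ITD array. The receptor-free arrays all lay below the others. ITD exceeded parental by 1.23 ± 0.10 (2.34-fold; limma adjusted p 4.49e-07) and vector by 0.89 ± 0.10 (1.85-fold; adjusted p 2.21e-05). Iars1, the isoleucyl enzyme, followed the same order, from 9.41 and 9.40 (parental) and 9.62 and 9.59 (vector) to 10.61 and 10.47 (wild-type FLT3), 10.47 and 10.60 (ligand), and 10.33 to 10.91 over the ITD arrays with a median of 10.45. Its ITD lines exceeded vector by 0.91 ± 0.13 (1.88-fold; adjusted p 0.00022).

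For Cars1, the cysteinyl enzyme, and Yars1, the tyrosyl enzyme, the vector cells stood between parental and FLT3 cells. They were not alone, since 14 of the 19 cytosolic members had both vector arrays above both parental arrays. Of all 20227 genes 5920 did. Cars1 read 8.77 and 8.86 in parental cells, 9.32 and 9.29 with vector, 10.20 and 10.10 with wild-type FLT3, 10.31 on both ligand arrays, and 9.81 to 10.20 over the ITD arrays (median 9.97). Yars1 read 9.50 and 9.37, 10.00 and 9.95, 10.69 and 10.66, 10.72 and 10.68 in the same order of groups, and 10.39 to 10.78 over the ITD arrays (median 10.53). No vector array of either gene overlapped with a parental or an FLT3 array. The rise from parental to vector passed the test for both: 0.49 ± 0.11 for Cars1 (limma adjusted p 0.0323) and 0.54 ± 0.12 for Yars1 (adjusted p 0.0251). They were the 2 cytosolic members called in that comparison, with no mitochondrial member called, where 1.27% of all genes rose and 0.959% fell. Neither call remained when any 1 of the 4 parental and vector arrays was left out, or with the median of probe sets. The call of Cars1 was also lost without either ligand array, which share the estimate of spread. Median centring of arrays and a fit without a variance trend lost it too. The differences of Vars1 (0.565) and Tars1 (0.521) were of similar size and were not called. The median difference was 0.22 over the cytosolic, -0.03 over the mitochondrial and 0.03 over all genes.

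**Figure D2:**
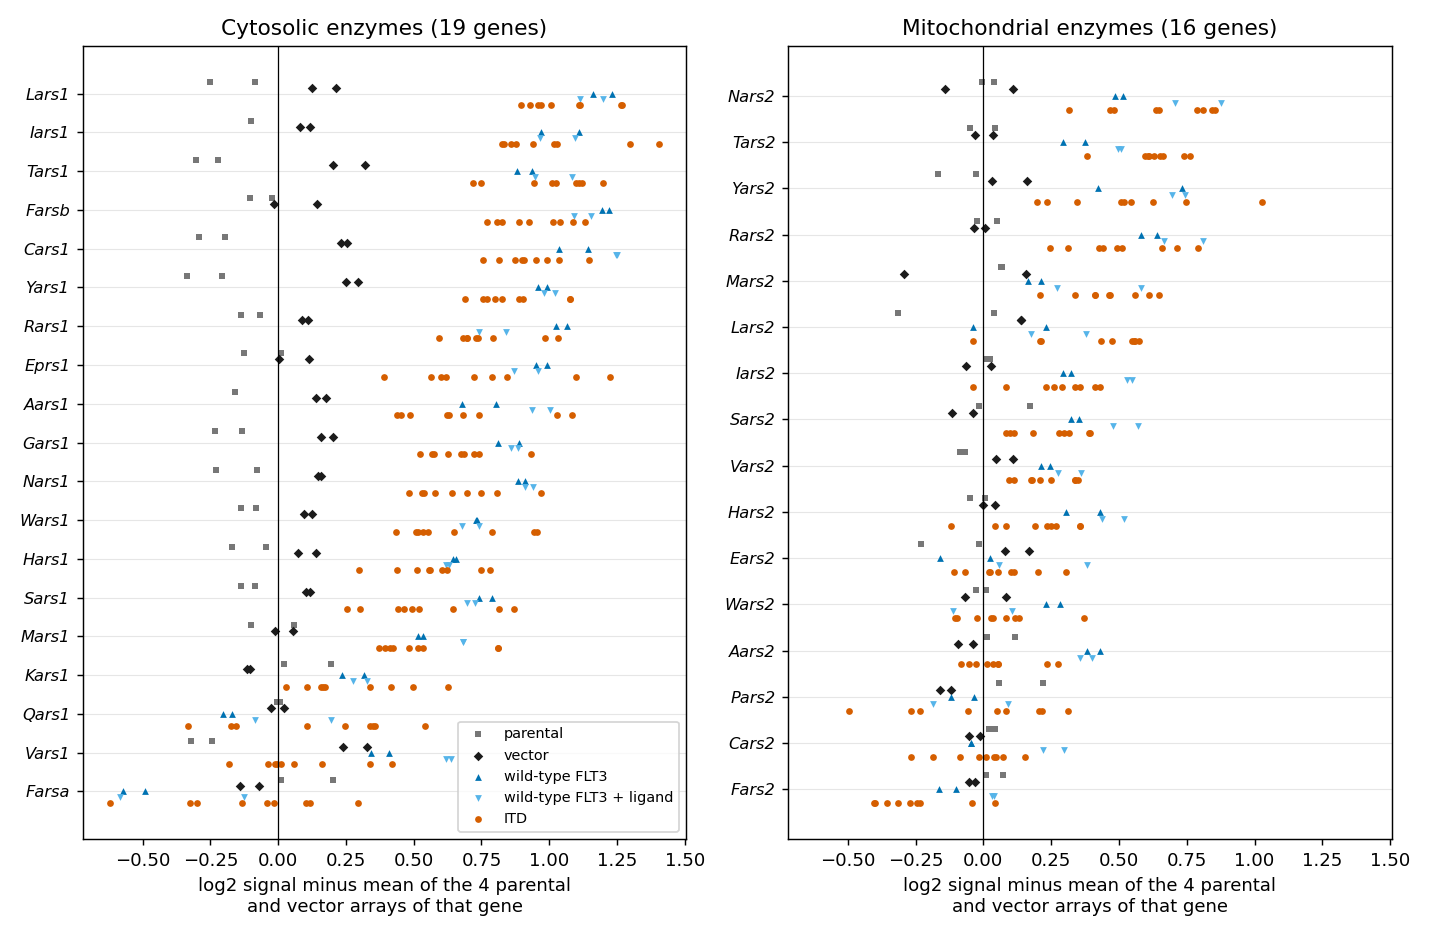
Log2 signal of each of the 35 genes on each array, minus the mean of the 4 parental and vector arrays of that gene. Points are arrays, marked by group, with cytosolic genes on the left and mitochondrial genes on the right, ordered by their difference. For 15 cytosolic genes every FLT3 array lies to the right of every receptor-free array, and Kars1, Qars1, Vars1 and Farsa at the bottom do not separate.

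Wild-type FLT3 was set against the empty vector, which asked what the receptor did without a mutation and with IL-3 present in both groups. In this comparison 14 cytosolic and 2 mitochondrial members (Rars2 and Aars2) rose and none fell, where 5.5% of all genes rose and 2.71% fell. The median difference was 0.65 (log2) over the cytosolic members, 0.29 over the mitochondrial members and 0.02 over all genes. The count of 16 fell to 8 when any 1 of the 2 vector or 2 wild-type arrays was left out, with the lone array of the pair then taken to vary like the others. The drop over all genes was not compared here either. The 8 cytosolic members called under every alternative were Cars1, Farsb, Gars1, Iars1, Lars1, Nars1, Rars1 and Yars1. That count, too, has no background over all genes.

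Farsb had the largest of these differences, 1.14 ± 0.12 (2.21-fold; limma adjusted p 4.73e-05). It encodes the beta subunit of phenylalanyl-tRNA synthetase, the one cytosolic synthetase built from 2 kinds of subunit. Farsb read 10.03 and 9.95 in parental cells, 10.04 and 10.20 with vector, 11.28 and 11.25 with wild-type FLT3, 11.15 and 11.21 with ligand, and 10.83 to 11.19 over the ITD arrays (median 10.98). Every FLT3 array was above every receptor-free array. Its partner Farsa, the alpha subunit, read 10.49 and 10.68 in parental cells, 10.41 and 10.34 with vector, 9.90 and 9.99 with wild-type FLT3, 10.35 and 9.89 with ligand, and 9.86 to 10.77 over the ITD arrays (median 10.44). Farsa was thus lowest with wild-type FLT3, at -0.43 ± 0.22 relative to vector, which missed the threshold (adjusted p 0.298). All 21 Farsb probe sets were higher with wild-type FLT3 than with vector, against 0 of the 20 Farsa probe sets. The difference in response between the 2 subunits was not tested.

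Rars1, the arginyl enzyme, read 9.33 and 9.35 with vector, 10.26 and 10.30 with wild-type FLT3, 9.98 and 10.08 with ligand, 9.17 and 9.10 in parental cells, and 9.83 to 10.27 over the ITD arrays (median 9.97). Wild-type FLT3 exceeded vector by 0.94 ± 0.13 (1.92-fold; limma adjusted p 0.000426). Nars1, the asparaginyl enzyme and the gene with the highest mean signal of the family, read 10.86 and 11.02 in parental cells, 11.25 and 11.24 with vector, 11.980 and 12.003 with wild-type FLT3, 12.005 and 12.034 with ligand, and 11.58 to 12.06 over the ITD arrays (median 11.74). Its wild-type arrays exceeded vector by 0.74 ± 0.13 (1.68-fold; adjusted p 0.00188). In both genes the receptor-free arrays formed the low end with no overlap.

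The cytosolic members that did not separate by receptor each had a pattern of their own. Qars1, the glutaminyl enzyme, read 10.11 and 10.09 in parental cells, 10.12 and 10.07 with vector, 9.89 and 9.93 with wild-type FLT3, 10.29 and 10.01 with ligand, and 9.77 to 10.64 over the ITD arrays (median 10.34), so that the ITD range took in every other array. Kars1, the lysyl enzyme, was called only against vector, with a difference of 0.39 ± 0.12 (limma adjusted p 0.0475) that kept its call in 7 of 24 alternatives, and its parental arrays (10.30 and 10.47) overlapped with the ITD arrays (10.31 to 10.90). Vars1, the valyl enzyme, read 9.18 and 9.26 in parental cells, 9.83 and 9.74 with vector, 9.91 and 9.84 with wild-type FLT3, 10.14 and 10.12 with ligand, and 9.32 to 9.92 over the ITD arrays (median 9.51). Its vector arrays lay among the ITD arrays, and its rise over parental (0.37 ± 0.12, adjusted p 0.0478) held in 5 of 24 alternatives.

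Promoter sequence was read for every member with an entry, whether or not it separated by receptor. The RefSeq table (build GRCm38.p6), with 250 bases before and 50 after each start, matched 12 of the 19 cytosolic and 14 of the 16 mitochondrial members. Entries were missing for Cars1, Hars1, Lars1, Nars1, Rars1, Vars1, Wars1, Hars2 and Pars2. Searched on both strands, TGATGNAA, a form of the element that Atf4 and C/EBP factors can bind, was found in 5 of the 12 cytosolic promoters (41.7%: Aars1, Gars1, Iars1, Tars1 and Yars1) and in 0 of the 14 mitochondrial ones. The 12 include Farsa, Kars1 and Qars1, which did not separate by receptor and held neither motif. Of the 27025 genes with a promoter there, 4.5% held it. CACGTG, the E-box that MYC and related factors can bind and which reads the same on both strands, was found in Aars1, Farsb, Iars1 and Tars1 (33.3%) and in 1 mitochondrial promoter, that of Ears2 (7.1%), against 8.1% of all genes. The 2 motifs do not overlap where both occur. These are matches of letters in a window, not evidence of binding.

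The upstream stretches that hold these matches are printed 5′ to 3′ on the strand of the gene, with the matched bases in capitals (TTGCATCA and TTTCATCA are TGATGNAA read on the other strand). They are at chr8:111033670-111033763 (plus strand) for Aars1, chr6:55037945-55038000 (plus) for Gars1, chr15:11399659-11399699 (minus) for Tars1, chr13:49682035-49682092 (plus) for Iars1 and chr1:78488905-78488962 (minus) for Farsb.
Aars1: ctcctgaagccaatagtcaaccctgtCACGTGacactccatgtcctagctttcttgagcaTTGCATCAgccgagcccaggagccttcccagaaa
Gars1: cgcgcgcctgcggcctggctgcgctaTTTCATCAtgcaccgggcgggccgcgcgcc
Tars1: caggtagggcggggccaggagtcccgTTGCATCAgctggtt
Iars1: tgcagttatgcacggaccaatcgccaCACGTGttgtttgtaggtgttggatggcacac
Farsb: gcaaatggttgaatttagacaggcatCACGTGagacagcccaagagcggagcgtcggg
The TGATGNAA match began at position -112 relative to the start in Aars1, -30 in Gars1 and -15 in Tars1, and the E-box at -146 in Aars1, -69 in Iars1 and -39 in Farsb. The matches of Iars1 and Yars1 to TGATGNAA, a second one of Aars1, and the E-boxes of Tars1 and Ears2 lay after the start.

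The genes whose promoters are printed include Aars1, the alanyl enzyme, and Gars1, the glycyl enzyme. Aars1 averaged 9.23 (log2) in parental cells, 9.55 with vector, 10.13 with wild-type FLT3, 10.36 with ligand and 10.07 in the ITD lines, and rose over parental by 0.84 ± 0.14 (limma adjusted p 0.000491). Its difference of wild-type FLT3 over vector, 0.58 ± 0.18, missed the threshold (adjusted p 0.0587), the one gene of the 15 that separated by receptor to do so. Gars1 averaged 10.25, 10.61, 11.28, 11.30 and 11.10 in the same order and rose over vector by 0.49 ± 0.09 in the ITD lines (adjusted p 0.00116) and by 0.67 ± 0.11 with wild-type FLT3 (adjusted p 0.00148). Cytosolic members without these letters in the window also rose, as Mars1, Sars1 and Eprs1 show: against parental cells the ITD lines were higher by 0.55 ± 0.11, 0.64 ± 0.12 and 0.82 ± 0.16, where the call of Mars1 was lost without parental array 1 and that of Eprs1 without parental array 2.

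Among the mitochondrial members Tars2, the threonyl enzyme, was the one called against parental and vector cells under every alternative tried. It read 10.12 and 10.21 in parental cells, 10.20 and 10.14 with vector, 10.46 and 10.54 with wild-type FLT3, 10.68 and 10.67 with ligand, and 10.55 to 10.93 over the ITD arrays (median 10.80). Every ITD array was above every parental, vector and wild-type array without ligand. ITD exceeded parental by 0.63 ± 0.08 (1.55-fold; limma adjusted p 5.14e-05), vector by 0.62 ± 0.08 (adjusted p 0.000115) and wild-type FLT3 by 0.29 ± 0.08 (adjusted p 0.0381). The last of these calls was lost in 12 of 24 alternatives, including without either wild-type array, while the first 2 held in all 24. Tars2 was the only member of the family called higher against parental, vector and wild-type FLT3 each.

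Nars2, the mitochondrial asparaginyl enzyme, read 7.60 and 7.55 in parental cells, 7.67 and 7.41 with vector, 8.04 and 8.07 with wild-type FLT3, 8.26 and 8.43 with ligand, and 7.87 to 8.41 over the ITD arrays (median 8.20). It rose over parental by 0.63 ± 0.13 (limma adjusted p 0.00259) and over vector by 0.67 ± 0.13 (adjusted p 0.00278), and lost these calls without parental array 2 and without vector array 2 respectively. Rars2, the arginyl enzyme, read 8.98 and 8.91, 8.90 and 8.94, 9.57 and 9.52, and 9.60 and 9.74 in the same order, and 9.18 to 9.72 over the ITD arrays (median 9.43). It was the one mitochondrial member called against parental (0.50 ± 0.12, adjusted p 0.00754), against vector (0.52 ± 0.12, adjusted p 0.00721) and for wild-type FLT3 over vector (0.62 ± 0.15, adjusted p 0.017), and each of these calls was lost when either array of a control pair in the comparison was left out.

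Mars2, the methionyl enzyme, read 7.83 on both parental arrays, 7.92 and 7.47 with vector, 7.93 and 7.98 with wild-type FLT3, 8.34 and 8.03 with ligand, and 7.97 to 8.41 over the ITD arrays (median 8.23). Its vector arrays were far apart, and the rise over vector was 0.53 ± 0.12 (limma adjusted p 0.00927). That call was lost without vector array 2 and with the median of its 5 probe sets. The rise of Mars2 over parental, 0.39 ± 0.12 (adjusted p 0.0394), held in 15 of 24 alternatives. Yars2, the tyrosyl enzyme, read 8.42 and 8.28 in parental cells, 8.47 and 8.60 with vector, 9.17 and 8.86 with wild-type FLT3, 9.14 and 9.19 with ligand, and 8.64 to 9.47 over the ITD arrays (median 8.96). It rose over parental by 0.62 ± 0.16 (adjusted p 0.0131), a call lost without either parental array and with the median of probe sets. The difference of Yars2 from vector was 0.43 ± 0.16 (adjusted p 0.0906).

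Lars2, the leucyl enzyme, did not separate by receptor. It read 7.71 and 7.35 in parental cells, 7.81 on both vector arrays, 7.90 and 7.63 with wild-type FLT3, 7.85 and 8.05 with ligand, and 7.63 to 8.24 over the ITD arrays (median 8.14). Its rise over parental was 0.53 ± 0.15 (limma adjusted p 0.0209) and was lost without parental array 2. Vars2, the valyl enzyme and the dimmest member, read 6.88 and 6.90 in parental cells and 7.02 and 7.08 with vector. It read 7.22 and 7.18 with wild-type FLT3, 7.33 and 7.25 with ligand, and 7.07 to 7.32 over the ITD arrays (median 7.18). Its rise over parental was 0.30 ± 0.09 (adjusted p 0.0196). That call was lost without either parental array and with only the groups compared in the fit. Sars2, the seryl enzyme, rose over vector by 0.32 ± 0.10 (adjusted p 0.0402) and kept that call in 10 of 24 alternatives.

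The remaining mitochondrial members were not called higher in the ITD lines against parental or vector cells. Aars2, the alanyl enzyme, was higher with wild-type receptor only: it read 7.25 and 7.35 in parental cells, 7.14 and 7.19 with vector, 7.66 and 7.61 with wild-type FLT3, 7.63 and 7.59 with ligand, and 7.15 to 7.51 over the ITD arrays (median 7.27). Its wild-type arrays lay above every ITD array. Wild-type FLT3 exceeded vector by 0.47 ± 0.12 (limma adjusted p 0.0226), and the ITD lines were lower than wild-type FLT3 by a difference of -0.35 ± 0.10 (adjusted p 0.0319). Both calls were lost without either wild-type array and with the median of probe sets, and the first also without either vector array. The second was also lost with median-centred arrays and with only the groups compared in the fit. Fars2, the phenylalanyl enzyme, averaged 8.32 in parental cells, 8.23 with vector, 8.14 with wild-type FLT3, 8.31 with ligand and 8.03 in the ITD lines, and its difference from parental of -0.29 ± 0.11 missed the threshold (adjusted p 0.0772). Cars2 averaged 8.46, 8.39, 8.38, 8.68 and 8.40, Ears2 7.11, 7.36, 7.17, 7.46 and 7.31, Iars2 8.01, 7.98, 8.30, 8.53 and 8.26, and Hars2 7.74, 7.78, 8.13, 8.24 and 7.94, in the same order of groups.

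Cytosolic and mitochondrial enzymes for the same amino acid were set side by side in 15 pairs, with Farsa and Farsb both paired with Fars2. Eprs1, which serves glutamate and proline, was not paired with Ears2 or Pars2. In the comparison of ITD with parental cells the cytosolic gene had the larger difference in all 15 pairs, by a median of 0.51 (log2). The widest gap was between Farsb and Fars2 (1.01 against -0.29) and the next between Cars1 and Cars2 (1.17 against -0.06). Against vector the cytosolic gene was ahead in 12 of 15 pairs, with Vars1 (-0.20 against 0.15 for Vars2), Nars1 (0.51 against 0.67 for Nars2) and Mars1 (0.51 against 0.53 for Mars2) the exceptions. For wild-type FLT3 over vector it was ahead in 13 of 15, with Farsa (-0.43 against -0.09) and Vars1 (0.09 against 0.15) the exceptions. The cytosolic gene was also ahead in 14 of 15 pairs for vector over parental, where neither group has the receptor, by a median of 0.24. For ITD minus wild-type FLT3 it was ahead in 5 of 15, for ITD minus ligand in 8, and for ligand minus wild-type FLT3 in 4. These comparisons share control or ITD arrays and are no independent tests. Signals of the mitochondrial members were lower (median 8.0 against 10.28), and the part of signal level in the result was not tested.

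The difference between the class means was lowest in parental cells, next in vector cells and highest with wild-type FLT3 without ligand. It was 1.69 and 1.77 on the parental arrays, 1.94 and 1.98 with vector, 2.31 and 2.32 with wild-type FLT3, 2.23 and 2.21 with ligand, and between 2.13 and 2.40 on the ITD arrays. The receptor-free arrays all lay below the FLT3 arrays, and the wild-type and ligand arrays lay within the ITD range. At the level of single probe sets, 90.7% of the 508 cytosolic and 74.1% of the 305 mitochondrial probe sets had a higher ITD than parental mean, 89.8% and 75.4% a higher ITD than vector mean, and 86.8% and 72.5% a higher wild-type than vector mean. Probe sets of all genes were not counted in this way. At the gene level, 10498, 9901 and 10803 of all 20227 genes had a difference above 0 in these comparisons, in the same order. Probe sets of a gene read the same transcripts and are not replicates.

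**Figure D3:**
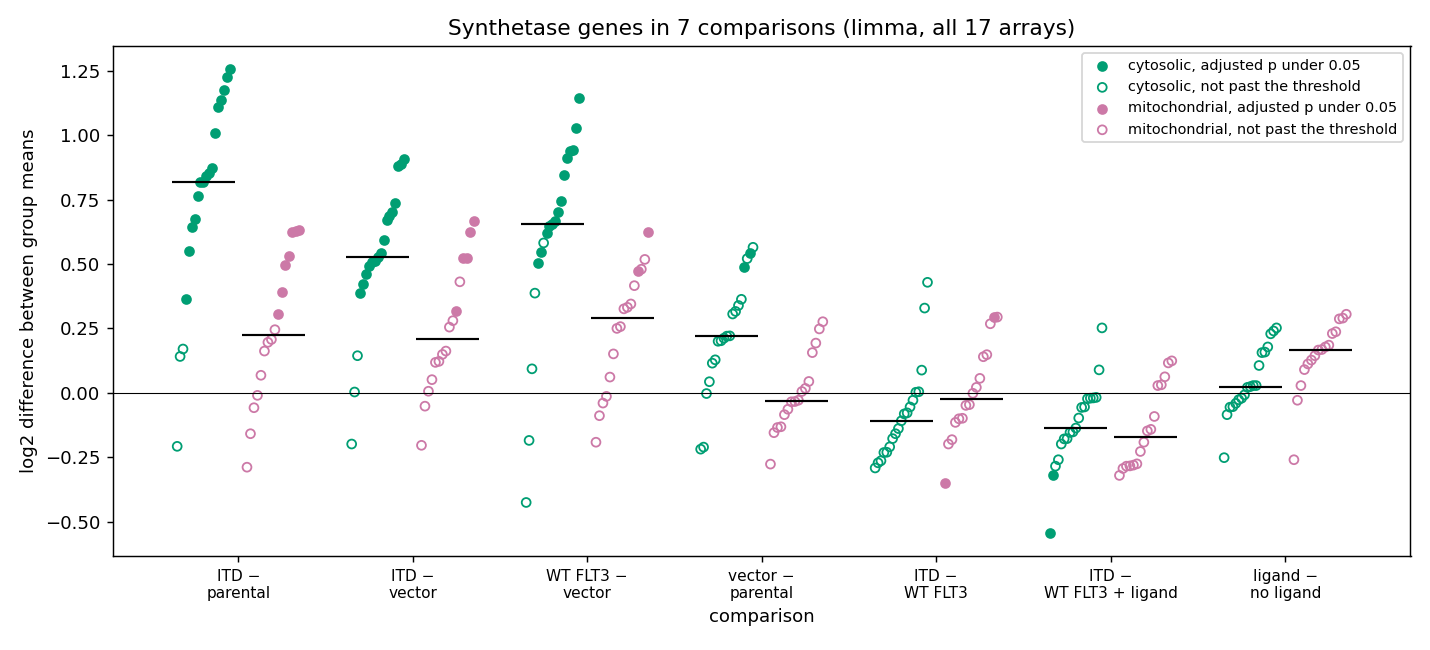
Log2 difference between group means for the 35 genes in 7 comparisons, with cytosolic and mitochondrial genes side by side. Points are genes, filled where the adjusted p was under 0.05 (limma, all 17 arrays), and horizontal lines are the class medians. The cytosolic median is 0.82 for ITD minus parental, 0.53 for ITD minus vector and 0.65 for wild-type FLT3 minus vector, and -0.11 for ITD minus wild-type FLT3.

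The ITD lines were compared with wild-type FLT3 cells without ligand, which asked what the mutation, together with growth without IL-3, added to the receptor. No cytosolic member was called, and 1 mitochondrial member rose (Tars2) and 1 fell (Aars2), where 3.27% of all genes rose and 4.44% fell. At an unadjusted p under 0.05 there were 5 of 19 cytosolic and 3 of 16 mitochondrial members, near the 21.9% of all genes. The count of 2 was 0 without either wild-type array and 4 without ITD line 4 or ITD line 5. It was 1 without any 1 of 8 further arrays, namely lines 1, 2, 3 and 6, either vector array and either ligand array. Both wild-type arrays lay within the range of the 9 ITD arrays for 17 of the 19 cytosolic and 11 of the 16 mitochondrial members. The share of all genes in that position was not counted, so these counts have no background. The median difference was -0.11 (log2) over the cytosolic, -0.02 over the mitochondrial and -0.04 over all genes. For the genes with the largest rises over receptor-free cells the differences from wild-type were 0.09 ± 0.11 for Tars1, -0.14 ± 0.10 for Lars1, -0.03 ± 0.13 for Iars1 and -0.26 ± 0.09 for Farsb, none past the threshold (limma adjusted p 0.717, 0.447, 0.931 and 0.0915). A missed threshold does not show that the groups are alike.

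Against wild-type FLT3 with ligand, 2 cytosolic members fell and no mitochondrial member was called, where 1.72% of all genes rose and 4.08% fell. At an unadjusted p under 0.05 there were 4 of 19 cytosolic and 6 of 16 mitochondrial members, and 19.2% of all genes. Vars1 fell by 0.54 ± 0.12 (limma adjusted p 0.0123), and both its ligand arrays lay above every ITD array. The call was lost without either ligand array and held in the other 22 of 24 alternatives. Cars1 fell by 0.32 ± 0.09 (adjusted p 0.0458), with both ligand arrays also above all ITD arrays, and kept its call in 6 of 24 alternatives. The count was 0 without either ligand array, 4 without line 5, and 1 without any 1 of lines 1, 2, 3, 6 and 8, either parental, either vector or either wild-type array. The median difference was -0.14 over the cytosolic, -0.17 over the mitochondrial and -0.02 over all genes.

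Ligand on wild-type FLT3 cells gave no calls by limma, for members or for any gene (0% of all genes), with 1555 genes (7.69%) and 1 member, Cars2, at an unadjusted p under 0.05. The 0 over all genes did not hold in other fits: 949 genes were called with only the groups compared in the fit. With the replicate number as a block and the ITD arrays left out, 864 were called. The members called were 0 in both. Cars2 differed by 0.31 ± 0.13 (adjusted p 0.577). The median difference was 0.02 over the cytosolic and 0.17 over the mitochondrial members. Of the 16 mitochondrial members 9 had their highest group mean with ligand, as did 9 of the 19 cytosolic members. Another 8 cytosolic members were highest with wild-type FLT3 without ligand. Parental cells gave the lowest group mean for 16 cytosolic members. For the mitochondrial members the lowest mean lay in parental cells for 7 and in vector cells for 7. The order of the groups was not counted over all genes, so these counts have no background.

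Set against an average of all 3 groups grown with IL-3 (parental, vector and wild-type FLT3), 15 cytosolic and 6 mitochondrial members rose in the ITD lines and none fell, where 11.2% of all genes rose and 8.15% fell. Its standard errors leave out the spread between the 3 control groups. With 1 value for each of the 3 control lines and the 9 ITD lines the count was 1, Tars2, with 466 of all genes called, and it was 9 with the parental group left out, with 2477 of all genes called against 3917 in the comparison as given. Tars2 was also the one member whose 9 ITD arrays all lay above all 6 of these control arrays, which 0.974% of all genes did.

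The spread among the 9 ITD lines was set against the spread within control pairs. The SD over the lines had a median of 0.17 (log2) over the cytosolic members and 0.15 over the mitochondrial members, against 0.06 and 0.07 within control pairs, but each ITD array is a different mutant and the pairs are repeats. A one-sided F ratio of the 2 variances called 1 member, Sars1, the seryl enzyme (SD 0.21 against 0.03, Benjamini-Hochberg adjusted p 0.0416), where 2.55% of all genes were called, so the members' share was near that of all genes. At an unadjusted p under 0.05 there were 14 of 19 cytosolic and 6 of 16 mitochondrial members, and 24.3% of all genes. Sars1 was highest in line 4 (11.78) and line 5 (11.72) and lowest in line 8 (11.16) and line 2 (11.21). That count was 0 without line 4 or 7 or any 1 of the 8 control arrays, and 2 without any 1 of lines 1, 2, 3, 6 and 8.

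Line 5 was highest of the 9 for 8 cytosolic members and line 4 for 6, while lines 2 and 8 were each lowest for 5. Line 4 was also lowest for 4, namely Farsa, Hars1, Kars1 and Qars1. The largest SDs belonged to Qars1 (0.30), Farsa (0.28), Pars2 and Eprs1 (0.27 each). Eprs1, which encodes a fusion of the glutamyl and prolyl enzymes, read 9.18 and 9.05 in parental cells, 9.28 and 9.17 with vector, 10.12 and 10.16 with wild-type FLT3, 10.04 and 10.13 with ligand, and 9.56 to 10.40 over the ITD arrays (median 9.89), with line 4 at 10.40, line 5 at 10.27 and line 9 at 9.56. Its rises over parental (0.82 ± 0.16, limma adjusted p 0.00159) and over vector (0.70 ± 0.16, adjusted p 0.00689) were lost without parental array 2 and without either vector array. Qars1 and Farsa ran the other way in line 4, where both were at their lowest (9.77 and 9.86), and both were highest in line 2 (10.64 and 10.77).

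Mitochondrial members were arranged differently over the lines. Line 7 was lowest for 8 of the 16 and line 8 for 3, and lines 1, 4 and 5 were each highest for 4. Line 7 had a mitochondrial class mean of 7.96 with a cytosolic class mean of 10.34, whereas line 1 had 8.26 and 10.40. The proliferation markers were also lowest in line 7 (list mean 9.45 against 9.93 to 10.23 in the other ITD lines), and their part in the result was not tested. Pars2, the prolyl enzyme, read 7.33 and 7.49 in parental cells, 7.16 and 7.12 with vector, 7.24 and 7.16 with wild-type FLT3, 7.09 and 7.37 with ligand, and 6.78 to 7.59 over the ITD arrays (median 7.33), a range that held every other array.

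**Figure D4:**
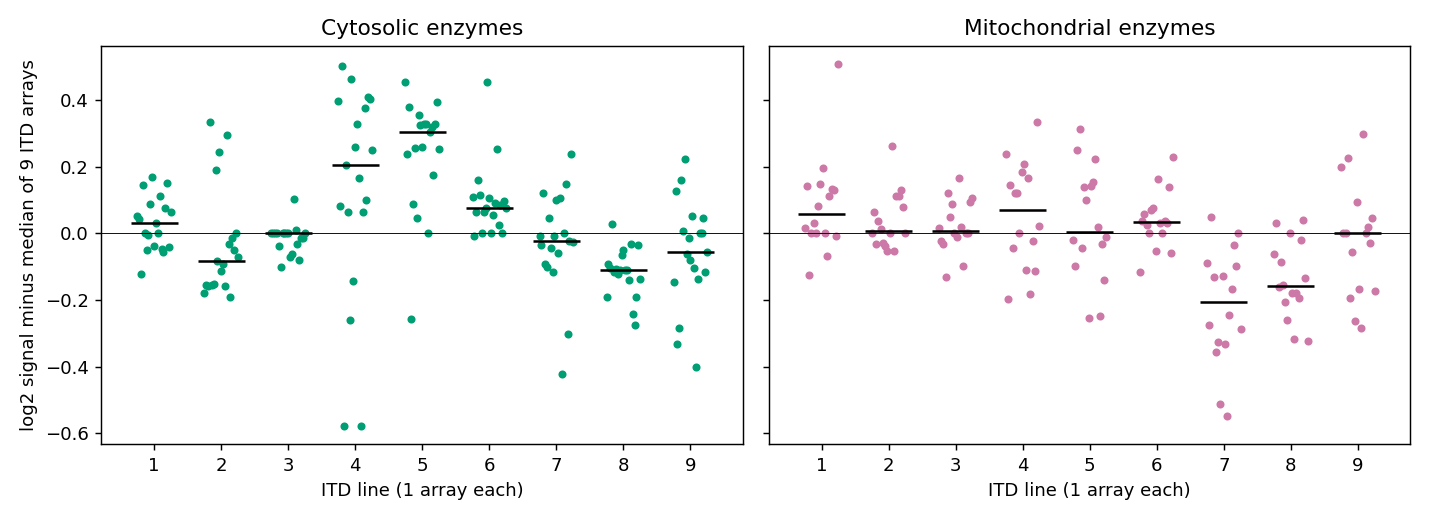
Log2 signal in each of the 9 ITD lines (1 array each) minus the median of the 9 lines for that gene, for cytosolic genes (left) and mitochondrial genes (right). Points are genes and horizontal lines are class medians. Lines 4 and 5 have the highest cytosolic medians (0.21 and 0.30), line 8 the lowest (-0.11), and line 7 the lowest mitochondrial median (-0.21).

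Genes that work beside the synthetases were counted from lists chosen with earlier results of these data known. Their counts stand against the shares of all genes given above, namely 10.3% risen and 6.72% fallen for ITD over parental, 8.82% and 5.21% for ITD over vector, and 5.5% and 2.71% for wild-type FLT3 over vector. The 3 scaffold genes of the multisynthetase complex all rose with wild-type FLT3 over vector, Aimp1 by 0.85, Aimp2 by 0.72 and Eef1e1 by 1.00 (log2), and all 3 rose in the ITD lines over vector (0.40, 0.50 and 0.68). Over parental cells Aimp2 (0.65) and Eef1e1 (1.13) rose, and Aimp1 was not called (0.25). The call of Aimp1 in the ITD lines over vector was lost in 13 of 24 alternatives, and that of Aimp2 without vector array 2. Eef1e1 read 9.89 and 9.66 in parental cells, 10.20 and 10.25 with vector, 11.23 and 11.22 with wild-type FLT3, 10.99 and 11.02 with ligand, and 10.78 to 11.04 over the ITD arrays (median 10.95), so that both wild-type arrays were above every ITD array. Relative to wild-type FLT3 the ITD lines fell by 0.45 for Aimp1 and by 0.32 for Eef1e1. Both calls were lost without either wild-type array, with the median of probe sets and with only the groups compared in the fit. That of Aimp1 was also lost without ITD line 2 or 6, and that of Eef1e1 without a variance trend. Over the alternatives the Eef1e1 difference ran from -0.33 to -0.07.

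In the cytosolic elongation and tRNA handling list, 6 of 9 genes rose in the ITD lines over parental and 4 over vector, and 3 rose with wild-type FLT3 over vector. Those 3 were Xpot, which exports transfer RNA from the nucleus (0.69), Trnt1, which adds the CCA end (0.63), and Ssb, the La protein that binds new transcripts of RNA polymerase III (0.61). Xpot read 10.10 and 9.87 in parental cells, 10.37 on both vector arrays, 11.119 and 11.001 with wild-type FLT3, a mean of 10.99 with ligand (SD 0.01, n = 2), and 10.84 to 11.13 over the ITD arrays (median 10.99). The calls of Trnt1 and Ssb for wild-type FLT3 over vector were each lost without wild-type array 1. The 17 genes of mitochondrial translation had 7 rises and 1 fall over parental, 5 rises over vector and 2 rises with wild-type FLT3 over vector. Elac2, which trims the 3′ ends of transfer RNA precursors, rose by 0.72 over parental and by 0.53 over vector (lost without vector array 2), and Gfm1, a mitochondrial elongation factor, rose by 0.54 and 0.56 (lost without parental array 2 and without either vector array).

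The amino acid sensing and response list held 28 genes, of which 19 rose and 1 fell in the ITD lines against parental, 12 rose and 1 fell against vector, and 13 rose with wild-type FLT3 over vector. Its median differences were 0.74, 0.43 and 0.51 (log2). Pycr1, which makes proline, rose by 1.81 over parental and 0.77 over vector, and lost the second call without vector array 1. Psat1, of serine synthesis, rose by 1.35 and 0.69, and Shmt2, the mitochondrial serine hydroxymethyltransferase, by 1.02 and 0.81. Psat1 averaged 9.60 in parental cells, 10.27 with vector, 10.80 with wild-type FLT3, 11.02 with ligand and 10.95 in the ITD lines, the same order of parental, vector and FLT3 cells as Cars1 and Yars1. Nupr1, a stress-responsive regulator, rose by 2.21 over parental and was not called over vector. Other genes of this list ran differently: Psph, Cebpb and Vldlr had their lowest group mean in the ITD lines. Eif2ak4, Atf5, Ddit3, Chac1 and Stc2 were not called by the F test over the 5 groups. Atf4 was lowest in parental cells and highest with ligand, with group means spanning 0.82.

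The markers of 32D cells were checked against the label. The myeloid progenitor markers Mpo, Prtn3, Ctsg and Myb were at 10.96 to 12.60 (log2 group means in parental and ITD cells), whereas Kit was low at 5.50 and 5.71. Of the 10 measured markers of this list 7 fell and none rose in the ITD lines against parental cells, and 4 fell against vector. The list mean was 10.57 and 10.50 on the parental arrays, 10.19 and 10.21 with vector, 9.78 and 9.77 with wild-type FLT3, 9.86 and 9.87 with ligand, and 9.43 to 9.91 on the ITD arrays, with line 4 lowest. Markers of other lineages lay between 5.67 and 6.84 in those groups, except Pecam1 at 11.15 and 10.50. Markers of maturation and proliferation differed between the same groups. The mean of the 5 eosinophil, mast cell and basophil markers was 12.38 and 12.50 on the parental arrays, 9.92 and 9.90 with vector, 7.32 and 7.22 with wild-type FLT3, 7.15 and 7.25 with ligand, and 9.17 to 11.04 on the ITD arrays. The neutrophil marker mean was 10.49 and 10.63, 10.33 on both vector arrays, 9.85 and 9.81, 9.45 and 9.63, and 7.68 to 9.54 in the same order. The proliferation marker mean was 9.62 and 9.72, 9.38 and 9.37, 9.74 and 9.56, 10.08 and 10.22, and 9.45 to 10.23, so the vector arrays were lowest and wild-type FLT3 lay at the parental level. The part of these shifts in the synthetase results was not tested.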

How the data were processed

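RNA of the 17 cultures was labelled and hybridised to Affymetrix Mouse Exon arrays, 1 culture each. The authors deposited RMA values on the log2 scale, 1 for each probe set. The submitters' processing notes name Affymetrix Expression Console 1.1 as the tool. RMA corrects background, normalises across arrays and summarises probes, so changes of all genes at once are removed. The genome build of the probe sets is not given in the sources used here.

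From these, a gene's value was the mean of its probe sets that carried that symbol alone in the platform annotation and had a 17-array mean above 4.599, the median over all 1256831 probe sets. This kept 237584 probe sets and 20227 genes. Members had 16 to 46 used probe sets if cytosolic (median 24) and 5 to 37 if mitochondrial (median 17). The annotation's older symbols (Aars for Aars1) were updated through RefSeq, which lists Farsa as a synonym of Farsb, and the 2 genes were kept apart as the annotation has them.

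limma 3.58.1 in R 4.3.3 fitted 1 mean for each of the 5 groups to all genes (lmFit, eBayes with trend, two-sided). Calls were made at 0.05 after Benjamini-Hochberg adjustment across the 20227 genes. Called higher is written as rose, and called lower as fell. Of the 12 residual degrees of freedom 8 come from the ITD lines. Arrays give no read depth, and their number limits the precision. The ITD spread was tested by a one-sided F ratio to the control pairs. The scripts were tested on simulated data. The alternatives were other probe set filters and summaries, renormalisation, other fits and samples left out.

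Every member could be named. Values on all arrays were given for the members with the largest called differences in each comparison, the highest and lowest mean signal and the largest ITD spread, and from each list up to 4 called genes were named. Values of further members were added after the data were seen. The members and lists were chosen with earlier results of these data known.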

Additional observations from a re-analysis of the deposited data

Results flagged for a closer look

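The family was searched for single ITD arrays far from the other 8, in the 35 genes and in class means, over 38 groups of 9 arrays. Such a search flags about 1 group in 20 by chance, and 2 were found. Tars2 was lowest in line 5, at 10.551, where the next array was at 10.766 and the median at 10.80. Wars2, the mitochondrial tryptophanyl enzyme, was highest in line 4, at 7.661, where the next was at 7.42 and the median at 7.33. Line 5 had the highest cytosolic class mean (10.61) and line 4 the next (10.50).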

How the results depend on the processing

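No member's called difference changed sign. Member counts with 1 array left out were not compared with those of all genes. Of 2190 values for the 87 member calls under the alternatives, 1940 kept their call and 250 did not, and 32 calls held throughout. Single calls over all genes were not followed through the alternatives, so these numbers have no background. With the parental group left out, the ITD lines against the mean of the remaining controls gave 9 members in place of 21, and 1 with 3 control and 9 ITD lines as units, with 2477 and 466 of all genes called in place of 3917. Leaving out 1 array each, the counts ranged from 18 to 23 in that comparison, 15 to 24 for ITD minus parental, 9 to 23 for ITD minus vector, 0 to 4 for ITD minus wild-type FLT3, 0 to 4 for ITD minus ligand, 8 to 18 for wild-type FLT3 minus vector, 0 to 3 for vector minus parental, 21 to 27 for any group difference, 0 to 2 for the ITD spread, and 0 throughout for ligand.

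With the median of probe sets, ITD minus wild-type FLT3 gave 1 member, ITD minus ligand 1, vector minus parental 0 and the ITD spread 0. Of all 20227 genes these called 1211, 900, 351 and 50, against 1559, 1173, 451 and 516 as reported. Second quantile normalisation gave 1 member for ITD minus ligand, 4 for vector minus parental and 0 for the spread. The calls over all genes there were 1137, 681 and 873. Median centring of arrays gave 1, 1, 1 and 0 members for ITD minus wild-type FLT3, ITD minus ligand, vector minus parental and the spread. Over all genes the calls were 1504, 1101, 445 and 452. Without a variance trend the first 3 of these comparisons gave 1 member each, with 1381, 1037 and 361 of all genes called. Fitting only the groups compared gave 0 for ITD minus wild-type FLT3 and 1 for ITD minus ligand, with 843 and 678 genes called. It gave 26 members for wild-type FLT3 minus vector (24 higher, 2 lower) and 7 for vector minus parental. Of all 20227 genes 4883 and 2013 were called there in place of 1662 and 451. For ligand minus wild-type FLT3 that fit called 949 genes in place of 0. The spread count was 0 with no filter and 3 with a stricter filter (17-array mean above 6.341). Over all genes these 2 settings called 317 of 22103 and 1213 of 16771. The causes were not tested.

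The cytosolic minus mitochondrial mean was 2.013 (vector), 2.367 (wild-type FLT3) and 2.284 (ligand) with no filter, 2.29 (wild-type FLT3) and 2.2 (ligand) with the stricter filter, and 2.277 (wild-type FLT3) after quantile normalisation. With the median of probe sets it was 2.095 (parental), 2.341 (vector), 2.658 (wild-type FLT3), 2.533 (ligand) and 2.563 (ITD), with the receptor-free groups lowest in each setting.

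The control groups share replicate numbers. The rep 1 minus rep 2 differences of pairs of groups correlated between -0.118 and 0.092 across genes. Correlations over all genes cannot exclude a batch that touches few genes, and the titles give no more than a number. A fit with the replicate block, without the ITD arrays, gave 10 members for vector minus parental, 24 for wild-type FLT3 minus vector and 0 for ligand. Of all 20227 genes it called 2418, 4382 and 864, against 451, 1662 and 0 as reported.

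The limits are 2 arrays per control group, a different mutant on each ITD array and growth with and without IL-3. Probe signals are relative, so levels of different genes are only loosely comparable.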
